A study of Mus musculus with 8 samples.

Results

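Scd1, Elovl5, Elovl6 and Gpam are the 4 genes described here, of 8789 genes that had a named spot on the arrays. They were chosen by their symbols and with earlier results of these data known. They are enzymes that desaturate and elongate fatty acids and begin triglyceride synthesis in liver. The 4 genes were carried by 7 probes, 1 each for Scd1, Elovl5 and Gpam and 4 for Elovl6. All 4 had a value in every mouse, as did 8214 of the named genes. RNA from livers of 4 Eps8KO males, 17 weeks old and lacking the actin remodeler Eps8 (Eps8 -/-), was hybridised against a single pool of liver RNA from WT males of the same age on cDNA arrays with 2 colours. Each Eps8KO mouse was measured on 2 arrays, with its RNA in Cy5 on one and in Cy3 on the other, which gave 8 arrays. How many WT mice were pooled is not settled, as the labels list 5 animals, describe 6 for labelling and state 4 in the design text. Per the methods of the study, the line was backcrossed into C57BL/6 and the profiled mice came from heterozygous crosses. The study cites earlier work for the absence of Eps8 from liver. Eps8 itself had 0 named probes, and the genotype could not be checked on these arrays.

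Liver makes fatty acids from citrate through Acly, Acaca and Fasn, and the first product is the saturated palmitate. Elovl6 lengthens palmitate to stearate, Scd1 places a double bond in stearate and palmitate to give oleate and palmitoleate, and Elovl5 lengthens polyunsaturated fatty acids that the desaturases Fads1 and Fads2 work on. Gpam, the glycerol-3-phosphate acyltransferase of mitochondria, joins the first fatty acid to the glycerol backbone, after which Agpat, lipin and Dgat enzymes complete the triglyceride. Scd1, Elovl5, Elovl6 and Gpam are known in mouse liver as targets of the transcription factor Srebf1, and the liver X receptor Nr1h3 and the glucose-responsive factor Mlxipl also act on genes of this pathway.

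The start regions of these genes are shown because the members are known to share regulators and 2 of them lay above 0 and 2 below it. RefSeq sequence of assembly GRCm38.p6 from 250 bases before to 50 bases after the start was at hand for 3 of the 4 genes, with 2 starts for Gpam, and Scd1 is named only. Capitals mark matches to a motif, on either strand.
Elovl5, chr9:77917115-77917414, + strand: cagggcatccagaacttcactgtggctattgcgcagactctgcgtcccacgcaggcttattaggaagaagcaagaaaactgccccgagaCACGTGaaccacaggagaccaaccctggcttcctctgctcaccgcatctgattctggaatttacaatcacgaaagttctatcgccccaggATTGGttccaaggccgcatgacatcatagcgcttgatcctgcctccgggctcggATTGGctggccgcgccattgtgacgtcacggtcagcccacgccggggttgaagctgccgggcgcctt
Elovl6, chr3:129532136-129532435, + strand: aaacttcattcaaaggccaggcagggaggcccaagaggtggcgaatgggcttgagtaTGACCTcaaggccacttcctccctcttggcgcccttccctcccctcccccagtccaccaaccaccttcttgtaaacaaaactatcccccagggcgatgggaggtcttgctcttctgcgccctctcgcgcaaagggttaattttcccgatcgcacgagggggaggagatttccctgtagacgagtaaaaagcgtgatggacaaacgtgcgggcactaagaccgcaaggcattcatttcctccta
Gpam, chr19:55127189-55127488, - strand: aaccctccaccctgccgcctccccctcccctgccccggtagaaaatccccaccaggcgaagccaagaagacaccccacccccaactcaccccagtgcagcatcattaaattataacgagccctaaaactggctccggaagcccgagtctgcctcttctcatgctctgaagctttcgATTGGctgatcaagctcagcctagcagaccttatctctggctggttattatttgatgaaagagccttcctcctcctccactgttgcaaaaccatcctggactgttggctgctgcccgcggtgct
The motifs searched were the core of the sterol regulatory element (TCACNCCAC, held by 1.24% of 32851 promoters), the E-box (CACGTG, 7.15%) and the CCAAT box (CCAAT, 37.4%). The others were the GC box (GGGCGG, 35.7%), the TATA box (TATAAA, 13.6%) and a single repeat unit of nuclear receptor elements (AGGTCA, 16.3%), which is not a whole element. In the Elovl5 window the E-box lay at -161 and CCAAT boxes lay on the opposite strand at -71 and -17, counted from the start. The Elovl6 window held AGGTCA on the opposite strand at -193 and no other match. The Gpam window above held a CCAAT box on the opposite strand at -74, and the window at its other start, chr19:55099428-55099727, held AGGTCA at -196 and a GC box on the opposite strand at -16. The letters of the sterol element core and of the TATA box matched in 0 of the 4 windows. A match describes these letters only.

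The values are log2 ratios, turned so that a positive value means more signal for Eps8KO than for WT, and a value of 1 is a doubling. They hold ratios alone, so levels of these genes cannot be compared with each other, and in whole liver fewer cells of a type and less RNA per cell cannot be told apart. Names of spots rest on a shift of 32 between row and probe numbers that was found from the values in earlier work on these data, in which Scd1 took part through the study's own list of changed genes. With this shift, 8 of 9 spots of hepatocyte markers (88.9%) had a value on all 8 arrays, against 66.0% of all named spots. Without it, 4 of 9 (44.4%) had one, against 65.4%. The median SD between arrays of the same dye orientation was 0.353 for these spots and 0.596 for all named spots with the shift, and 0.768 and 0.612 without it. Only no shift was compared here, on data from which the shift was found, so these values do not set 32 apart from other shifts. Each array held 17968 to 18802 values of 20355 spots, array medians of the deposited log2 Cy5 over Cy3 ran from -0.284 to -0.077, and before turning, the arrays of a mouse with opposite dyes correlated with r from 0.0684 to 0.140 across spots. The sign therefore rests on the dyes in the labels.

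In Eps8KO liver, Scd1 and Elovl5 lay above the WT pool in 4 of 4 mice and Elovl6 and Gpam lay below it in 4 of 4 mice. The mean ratio of Eps8KO over WT was 1.597 for Scd1, 1.44 for Elovl5, 0.729 for Elovl6 and 0.498 for Gpam. None of the 4 passed an adjusted p of 0.05 by limma, and 0 of 15455 features (0.0%) did. At an unadjusted p under 0.05, limma found all 4 past the threshold, Scd1 and Elovl5 among 333 features higher in Eps8KO (2.15%) and Elovl6 and Gpam among 478 lower (3.09%). The same sign in all 4 mice was found for 2259 features (14.6%). The genes were picked with earlier results of these data known, so these shares are a background and the count of 4 adds nothing to it. WT was represented by 1 pooled sample, and the p-values measure the spread between Eps8KO mice and leave out the spread between WT mice.

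Scd1, the main stearoyl-CoA desaturase of liver, was read by probe 2935 on all 8 arrays. With Eps8KO RNA in Cy5, its log2 ratio was 0.44 in mouse 1, 1.08 in mouse 2, 2.16 in mouse 3 and 1.25 in mouse 4. With Eps8KO RNA in Cy3, it was 0.14, 0.20, 0.47 and -0.34 in the same order of mice. Every mouse thus had its higher value with Eps8KO in Cy5, and mouse 3 was the highest in both orientations. The means of the 2 arrays were 0.29, 0.64, 1.32 and 0.45, which gave 0.68 ± 0.45 (SD, n = 4). The 95% confidence interval by limma ran from 0.11 to 1.24 (adjusted p = 0.906). An exact sign-flip permutation test over the 4 mice, two-sided, gave p = 0.125, the smallest that 4 mice allow, and gave the same for each of the other 3 genes. Scd1 stands in the study's list of changed genes, which was chosen on these arrays, so its direction here is not independent evidence. The study also measured Scd1 by quantitative PCR and reported it higher in Eps8KO liver, which these arrays cannot check.

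Elovl5, the elongase of polyunsaturated fatty acids, was read by probe 4194 on all 8 arrays. Its log2 ratio was 0.79, 1.08, 1.68 and 0.90 in mice 1 to 4 with Eps8KO in Cy5. With Eps8KO in Cy3 it was 0.11, -0.16, -0.072 and -0.12. All 4 values with Eps8KO in Cy5 lay above all 4 with it in Cy3, of which 1 was above 0. Averaged per mouse, Elovl5 was at 0.45, 0.46, 0.80 and 0.39, or 0.53 ± 0.19 (SD, n = 4). The 95% interval was 0.18 to 0.87 (limma, adjusted p = 0.848), and mouse 3 was again the highest.

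Elovl6, the elongase of palmitate, was read by 4 probes that did not give the same picture. Probe 214, with a value on all 8 arrays, read 0.40, 0.038, 0.57 and -0.28 in mice 1 to 4 with Eps8KO in Cy5 and -0.066, -0.049, -0.33 and -0.67 with it in Cy3. Its mouse means were 0.17, -0.006, 0.12 and -0.48, or -0.05 ± 0.29 (SD, n = 4), and so lay on both sides of 0. Probe 11213, also on all 8 arrays, read -0.38, -0.95, 0.21 and -0.39 with Eps8KO in Cy5 and -1.16, -1.17, 0.56 and -1.70 with it in Cy3. Its mouse means were -0.77, -1.06, 0.38 and -1.04, or -0.62 ± 0.68 (SD, n = 4), with mouse 3 apart from the other 3 mice. Probe 8154 had a value on 7 arrays and mouse means of -0.18, -0.12, -1.15 and -0.31, or -0.44 ± 0.48 (SD, n = 4). It read -0.36, -0.76, -1.15 and -3.89 in mice 1 to 4 with Eps8KO in Cy5, and 0.008, 0.51 and 3.26 in mice 1, 2 and 4 with it in Cy3. All its Cy5 values were thus below 0 and all its Cy3 values above, and mouse 3 rests on 1 array in Cy5. Probe 19862 had a value on 4 arrays and in 3 mice, with means of -1.06, 0.35 and -1.54 in mice 1 to 3, or -0.75 ± 0.98 (SD, n = 3). Over the probes, Elovl6 was at -0.46, -0.21, -0.55 and -0.61 in mice 1 to 4, or -0.46 ± 0.18 (SD, n = 4; limma 95% interval -0.80 to -0.12, adjusted p = 0.906). The small SD of the gene mean therefore stood beside probe SDs from 0.29 to 0.98. With probe 214 left out the mean was -0.60 ± 0.22, with 8154 left out -0.47 ± 0.23 and with 19862 left out -0.37 ± 0.18, each below 0 in 4 of 4 mice. With probe 11213 left out it was -0.38 ± 0.38, and mouse 2 stood at 0.073. Tested as single features, probes 214, 8154 and 11213 had adjusted p-values of 0.96, 0.905 and 0.905 by limma, and probe 19862, lacking a value in mouse 4, was not tested.

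Gpam had the log2 ratio farthest from 0 of the 4 genes and was read by probe 132 on all 8 arrays. Its log2 ratio was -2.47, -0.39, -2.76 and -1.99 in mice 1 to 4 with Eps8KO in Cy5. With Eps8KO in Cy3 it was -0.54, -0.47, 0.22 and 0.34. Mice 1, 3 and 4 were thus far below 0 in Cy5 and closer to 0 in Cy3, whereas the 2 values of mouse 2 differed by 0.073. The mouse means were -1.51, -0.43, -1.27 and -0.82, or -1.01 ± 0.48 (SD, n = 4), which is a ratio of 0.498, with 2.01 times as much signal in the WT pool. The 95% interval by limma was -1.60 to -0.42 (adjusted p = 0.838).

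**Figure D1:**
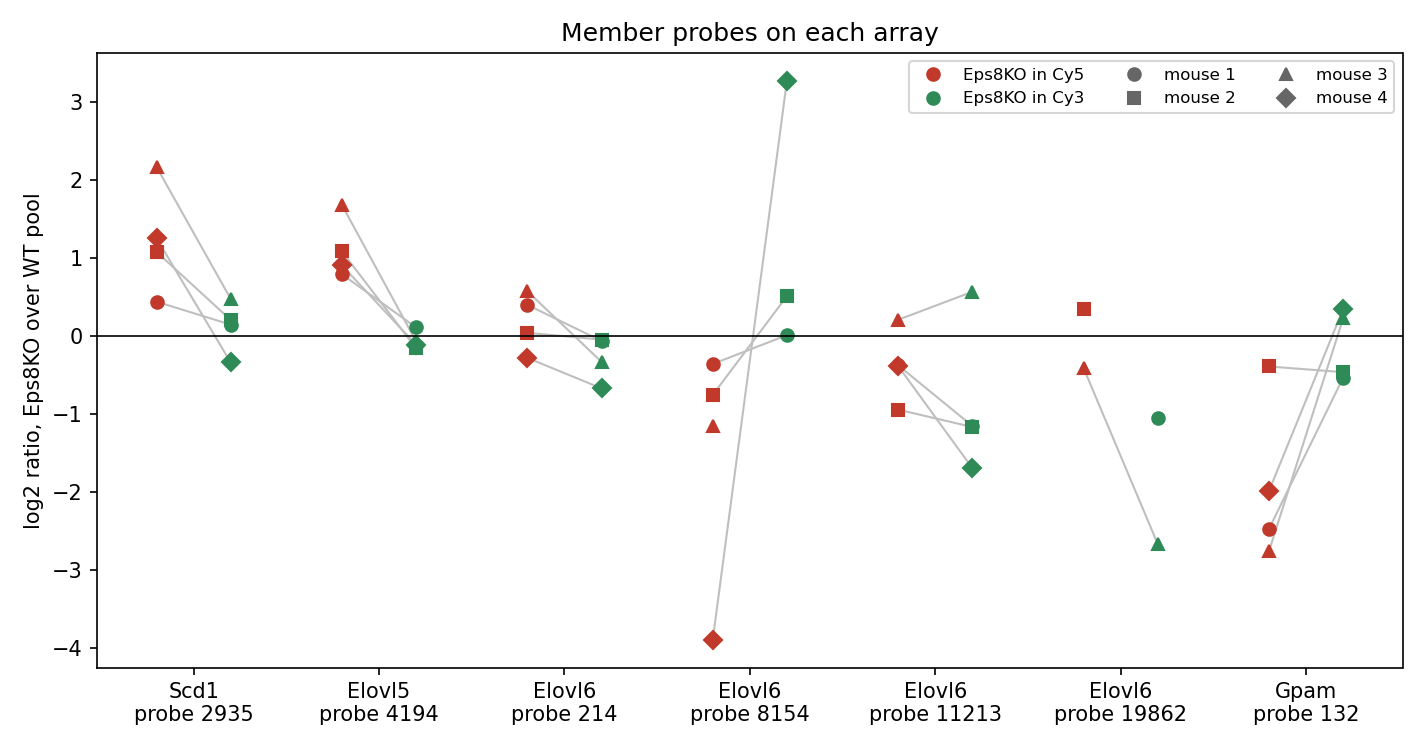
Log2 ratio of Eps8KO over the WT pool (vertical axis) for each of the 7 probes of Scd1, Elovl5, Elovl6 and Gpam (horizontal axis) on every array that held a value. Red symbols have Eps8KO RNA in Cy5, green symbols have it in Cy3, the symbol's shape gives the mouse, and grey lines join the 2 arrays of a mouse. Scd1 and Elovl5 lie above 0 and Gpam below 0 on all 4 arrays with Eps8KO in Cy5, with means of 0.12, -0.06 and -0.11 in Cy3, and the probes of Elovl6 differ among themselves.

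**Figure D2:**
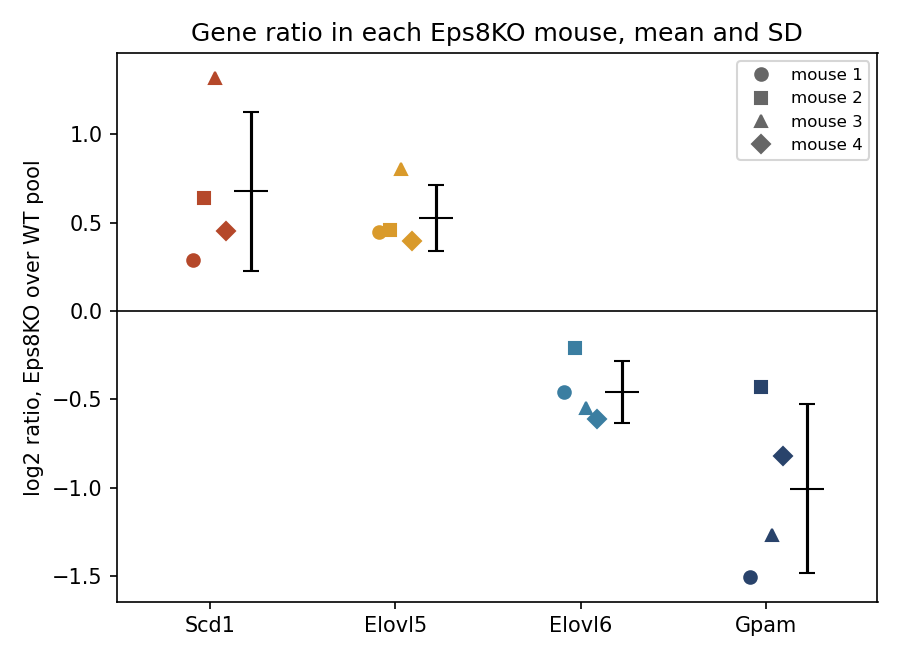
Log2 ratio of Eps8KO over the WT pool (vertical axis) of each gene (horizontal axis) in each of the 4 Eps8KO mice, as the mean of both dyes and of the gene's probes. Symbols are mice, and the bar beside them is the mean with 1 SD (n = 4). Scd1 and Elovl5 lie above 0 in every mouse and Elovl6 and Gpam below 0 in every mouse.

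The mean log2 ratios of Scd1, Elovl5 and Gpam lay farther from 0 with Eps8KO RNA in Cy5 than with it in Cy3, though single mice overlapped for Scd1 and Gpam. Scd1 averaged 1.23 ± 0.71 with Eps8KO in Cy5 and 0.12 ± 0.34 with Eps8KO in Cy3, Elovl5 averaged 1.11 ± 0.40 and -0.06 ± 0.12, and Gpam averaged -1.90 ± 1.06 and -0.11 ± 0.46 (SD, n = 4 arrays each). Elovl6 averaged -0.54 ± 0.66 in Cy5 and -0.33 ± 0.48 in Cy3, with 0 of 4 and 1 of 4 arrays above 0. The difference of the 2 arrays of a mouse, Cy5 minus Cy3 orientation, was 1.11 ± 0.66 for Scd1, 1.17 ± 0.45 for Elovl5, -0.21 ± 1.11 for Elovl6 and -1.79 ± 1.32 for Gpam (SD, n = 4). By limma on these differences the adjusted p was 0.101 for Scd1, 0.068 for Elovl5, 0.786 for Elovl6 and 0.11 for Gpam. Over the 11727 features with a value on all 8 arrays, 7 passed an adjusted p of 0.05 (0.0597%) and 3416 an unadjusted p of 0.05 (29.1%), so a dye split was common among the spots. The 7 measured hepatocyte markers of 15 listed had a median log2 ratio of 0.90 with Eps8KO in Cy5 and -0.59 with it in Cy3. The medians of all features were -0.14 and 0.20. Ttr, Apoa1, Apoa2, Fah and Tat lay above 0 in Cy5 and below it in Cy3. Alb (0.273 and 0.328) and Hnf4a (-0.812 and -0.317) kept their side of 0. The part of the dye in the ratios of the 4 genes was not tested beyond these values.

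With dyes averaged, Scd1 and Elovl5 stood close together within a mouse and apart from the other 2 genes. The log2 ratio of Scd1 minus that of Elovl5 averaged 0.15 ± 0.28 and was above 0 in 3 of 4 mice, so the order of these neighbours did not exceed their spread. Elovl5 exceeded Elovl6 by 0.98 ± 0.28, and Elovl6 exceeded Gpam by 0.55 ± 0.41, each in 4 of 4 mice (SD, n = 4). Elovl6 and Gpam were farthest apart in mouse 1, by 1.05, and differed by 0.22 in mouse 2 and 0.21 in mouse 4. The wider gaps were 1.13 ± 0.51 between Scd1 and Elovl6, 1.53 ± 0.57 between Elovl5 and Gpam and 1.68 ± 0.68 between Scd1 and Gpam. With Eps8KO in Cy5 alone, Elovl5 lay above Elovl6 and Elovl6 above Gpam in every mouse. With it in Cy3 alone, Elovl6 lay below Gpam in mice 1, 3 and 4 and above it in mouse 2. Elovl5 lay below Gpam in mice 3 and 4 and above it in mice 1 and 2. In mouse 4, Scd1 and Elovl5 lay below Elovl6, and in the other mice above it. All these values are ratios to the same pool, and they are given as a description with no test.

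Of 116 other genes listed for synthesis, storage and breakdown of triglycerides and their control, 78 had a value in all 4 mice. Their median log2 ratio was 0.003, against 0.017 for all features, 40 lay above 0 and 38 below, and 0 passed an adjusted p of 0.05. At an unadjusted p under 0.05, 3 of the 78 were higher and 4 lower in Eps8KO, beside 2.15% and 3.09% of all features. In fatty acid synthesis, 9 of 16 listed genes were measured, with a median of 0.11. Fasn, the fatty acid synthase, was at 0.36 ± 0.46, Acly, the citrate lyase, at 0.29 ± 0.34, and Me1, the malic enzyme that supplies NADPH, at -0.53 ± 0.75 (SD, n = 4 here and below). In each of these 3 the SD between mice exceeded the distance of the mean from 0. Mid1ip1, a protein that promotes polymerisation of acetyl-CoA carboxylase, was past the unadjusted threshold at 0.41 ± 0.16 (limma adjusted p = 0.906).

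Among desaturation genes, 8 of 11 listed were measured besides Scd1, with a median of 0.064. Fads1 and Fads2, the desaturases of polyunsaturated fatty acids, were at 0.049 ± 0.15 and -0.39 ± 0.91. Scd2, a desaturase closely related to Scd1, was at -2.17 ± 1.80 (adjusted p = 0.906), but its 2 probes had values on only 4 and 3 arrays, and mouse 4 was at -0.009. In mouse 2 these probes read -5.18 and -0.20. Scd2 averaged -3.50 with Eps8KO in Cy5 and 0.31 with it in Cy3, where Scd1 averaged 0.12. Degs1, a desaturase of sphingolipids, was at 0.08 ± 0.031. With dyes averaged Scd1 and Scd2 lay on opposite sides of 0, and with Eps8KO in Cy3 both means were above it. Whether cDNA spots tell these similar genes apart was not tested.

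Besides Elovl5 and Elovl6, 8 of 11 listed elongation genes were measured, and 0 were past the unadjusted threshold. They ran from -0.30 to 0.06 with a median of -0.046, so with dyes averaged Elovl5 lay above all 8 and Elovl6 below all 8. Both members were chosen with earlier results of these data known. Their place outside this range may come from that choice and is a description only. With Eps8KO in Cy5, Elovl5 (1.11) was also above all 8, whereas Hacd4 (-0.713) and Elovl7 (-0.572) lay below Elovl6 (-0.54). In Cy3, the 8 genes ran from -0.855 (Hsd17b12) to 0.833 (Hacd4) and enclosed both Elovl5 (-0.06) and Elovl6 (-0.33). Elovl1, which lengthens very long fatty acids, was at -0.24 ± 0.56, Hsd17b12, the ketoacyl-CoA reductase of the elongation cycle, at -0.30 ± 0.16, and Tecr, its enoyl-CoA reductase, at 0.053 ± 0.14. With dyes averaged, the range of these genes covered less than the distance between both members. Of 7 measured acyl-CoA synthetases, transporters and binding proteins of 10 listed (median -0.13), Slc27a2, a very long chain acyl-CoA synthetase, was past the unadjusted threshold at -0.49 ± 0.26 (adjusted p = 0.906).

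In triglyceride synthesis, 15 of 19 listed genes besides Gpam had values, with a median of 0.052. Lpgat1, a lysophospholipid acyltransferase, was at -1.11 ± 0.64 (adjusted p = 0.869) and close to Gpam. Agpat1, which adds the next fatty acid after Gpam, was at 0.91 ± 0.75 (adjusted p = 0.906), from probes on 2 and 7 arrays with means of 0.62 and 0.76. Both Agpat1 probes had a value in mice 1 and 3, where they lay on opposite sides of 0, at 1.68 and -0.40 in mouse 1 and -0.44 and 0.47 in mouse 3. Gpat4, the microsomal counterpart of Gpam, was at 0.007 ± 0.22 over 4 probes, and Gpd1, which makes glycerol-3-phosphate, at -0.13 ± 0.11. Of later steps, Lpin1 was at 0.19 ± 0.46 and Lpin2 at 0.24 ± 0.12, both phosphatidate phosphatases, and Dgat1 and Dgat2, which add the last fatty acid, at 0.24 ± 0.70 and 0.11 ± 0.40. None of these 6 genes was past the unadjusted threshold, and with dyes averaged the ratio of Gpam was lower than all of them. Gpam was chosen with earlier results of these data known, so its place below them is a description only. With Eps8KO in Cy3 alone, Gpd1 (-0.662), Lpin2 (-0.428) and Gpat4 (-0.147) lay below Gpam (-0.109), and Lpin1, Dgat1 and Dgat2 above it. Agpat4 stood at 3.19 ± 8.63 because mouse 2 read 15.9, the highest value of its array.

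Plin2, the coat protein of hepatic lipid droplets, was at -0.46 ± 0.27 (limma adjusted p = 0.906), with probe means of -0.57 and -0.36. Of the 7 pathway genes past the unadjusted threshold, Plin2 averaged -0.48 with Eps8KO in Cy5 and -0.45 with it in Cy3. Slc27a2 (-0.29 and -0.70) and Lpgat1 (-1.56 and -0.65) were also below 0 in both, and Mid1ip1 (0.78 and 0.038) and Agpat1 (0.066 and 1.33) above 0 in both. Scap (-0.015 and 0.78) and Scd2 (-3.50 and 0.31) lay on opposite sides of 0. Plin2 was the 1 gene past the unadjusted threshold among 10 measured of 14 listed for droplets and lipoprotein loading, whose median was -0.015. In triglyceride breakdown 7 of 12 were measured, with a median of -0.17, and Pnpla2, the adipose triglyceride lipase, was at 0.20 ± 0.47. Of 23 listed regulators 14 were measured, with a median of -0.004. Nr1h3 was at -0.029 ± 0.13, Mlxipl at -0.02 ± 0.41, and Scap, the escort protein of sterol regulatory element binding proteins, at 0.38 ± 0.21 (adjusted p = 0.906). Acaca, Elovl2, Elovl3, Acsl1, Srebf1 and Insig1 did not have a named value in all 4 mice.

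**Figure D3:**
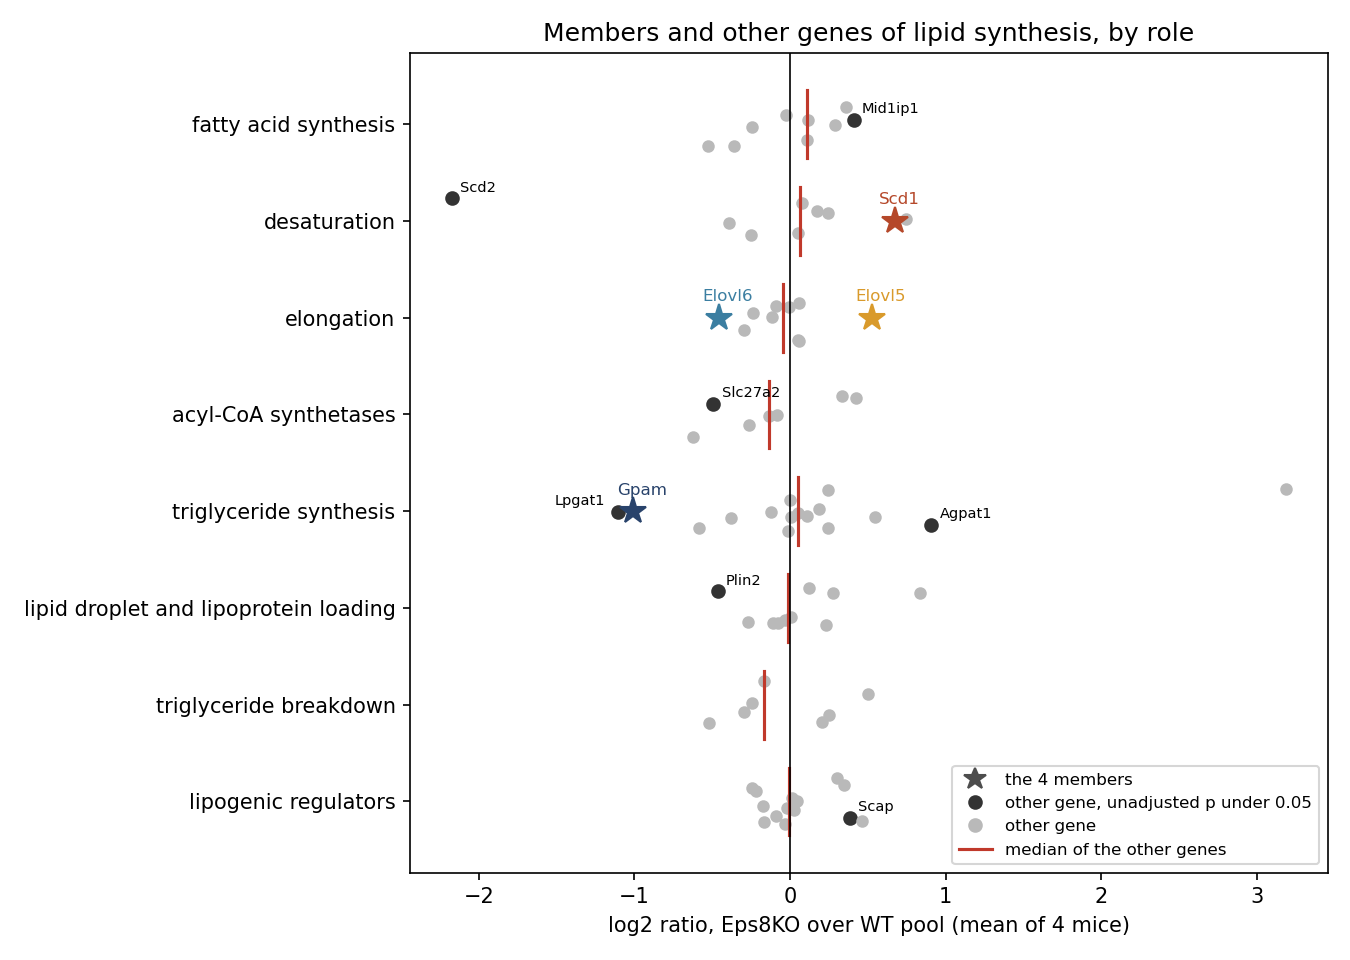
Log2 ratio of Eps8KO over the WT pool (horizontal axis, mean of 4 mice) of the 4 members (stars) and of 78 other measured genes (points, with a random vertical offset), by role (vertical axis). Black points are genes at an unadjusted p under 0.05 by limma, and red bars are medians of the other genes of a role. The medians lie between -0.17 and 0.11. With dyes averaged, as plotted, the stars of Elovl5 and Elovl6 lie outside the range of the other elongation genes. This did not hold with Eps8KO in Cy3 alone, and both genes were chosen with earlier results of these data known.

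Likeness of pattern was measured over the 8 turned arrays, as the root mean square difference of log2 ratios from the gene in question, among 6565 named genes with a value on each array. The gene nearest to Scd1 was Elovl5, with a difference of 0.35, followed by Cyp3a11 at 0.41 and Ces1e at 0.43. Nearest to Elovl5 were Ass1 at 0.28, Qdpr at 0.30 and Cat at 0.31, and Scd1 was the 5th at 0.35. Elovl6 had Nedd4l at 0.31, Tpgs1 at 0.33 and Pola2 at 0.33 as its nearest genes. Gpam had Paqr9 at 0.36, Tbc1d25 at 0.54 and Plbd2 at 0.77. The array values hold the dye split, and over the 4 mouse means, where dyes are averaged, Elovl5 ranked 8th from Scd1 and Scd1 ranked 73rd from Elovl5, with a difference of 0.29. Elovl6 ranked 531st from Gpam over the arrays, with a difference of 1.30, and 86th over the mouse means, whereas Gpam ranked 5345th and 3618th from Elovl6. These are descriptions over arrays that share mice and a pool.

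Markers of cell types that a piece of liver can hold were read in the same way. Hepatocyte markers ran from -0.19 to 0.34 with a median of 0.19, and 1 of 7, Apoa1, was past the unadjusted threshold, which 2.15% of all features passed as higher and 3.09% as lower. Of 6 measured Kupffer cell and leukocyte markers of 10 listed, with a median of 0.014 and a range of -0.995 to 1.01, 1 was lower (Cd74, at -0.995). Of 4 adipocyte markers of 7, with a range of -0.44 to 0.11, 1 was lower (Fabp4, -0.44 ± 0.31), and of 4 pancreas acinar markers of 9, with a range of -0.95 to 0.23, 2 were lower (Cela3b and Cpa1). Stellate cell markers (5 of 8) had a median of -0.096, endothelial markers (3 of 6) of -0.44, cholangiocyte markers (4 of 5) of -0.055 with 1 lower (Krt7), and red blood cell markers (3 of 9) of 0.098. Of the other adipocyte markers, Retn was at 0.11, above 0 in 4 of 4 mice, and Plin1 and Lipe were above 0 in 2 of 4. Fabp4 averaged 0.01 with Eps8KO in Cy5 and -0.90 with it in Cy3, Cpa1 averaged -2.87 and 0.96, and Cela3b averaged -1.30 and 0.35. The part of other cell types in the ratios was not tested.

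**Figure D4:**
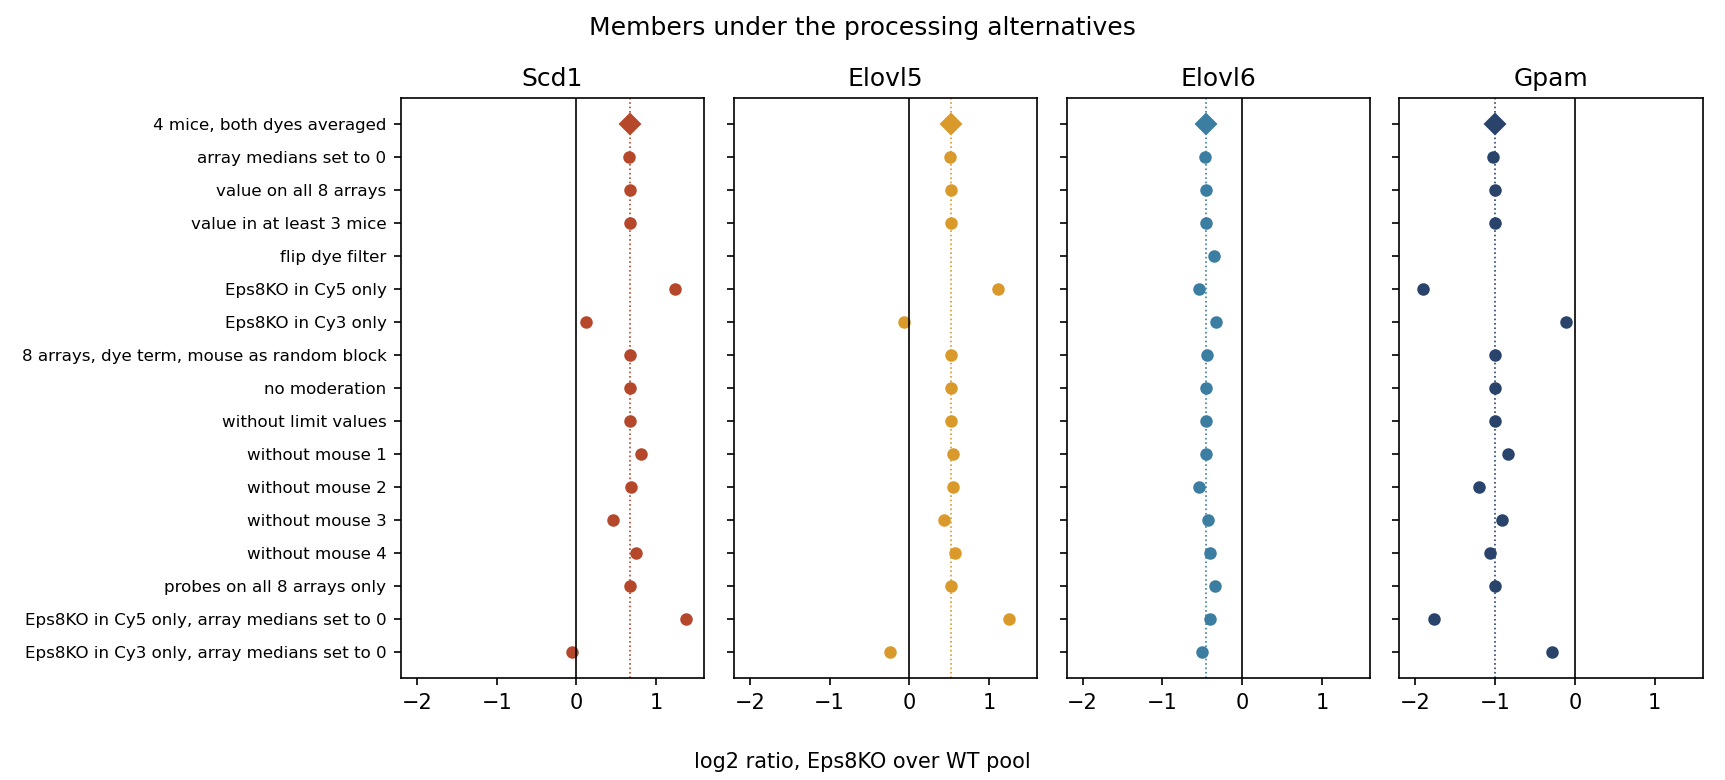
Log2 ratio of Eps8KO over the WT pool (horizontal axis) of Scd1, Elovl5, Elovl6 and Gpam under each processing alternative (vertical axis), with the diamond and dotted line at the value reported. A missing point means that the setting gave no value. Leaving out a mouse moved no gene across 0 (0.46 to 0.80 for Scd1 and -1.20 to -0.84 for Gpam), whereas arrays with Eps8KO in Cy3 alone brought Scd1 to 0.12, Elovl5 to -0.06 and Gpam to -0.11.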

How the data were processed

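Liver RNA of 4 Eps8KO mice was compared with 1 pool of WT liver RNA on 8 cDNA arrays in a dye swap. Per spot, the authors deposited a log2 ratio of Cy5 over Cy3. Their methods describe normalisation by total intensity in MIDAS, filters on background, on bad spots and on consistency between swapped dyes, and SAM. The paper gives a limit on fold and on p for its list but no other SAM setting. Whether the deposited log2 values came before or after these steps is not given in the sources used here, and array means from -0.392 to -0.181 show no centring at 0. Scanner intensities were not used here, so signal over background is unknown, and precision is limited by the number of arrays.

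The 12398 probes of the platform table had 1 symbol each, 0 had several, and all matched RefSeq genes of GRCm38.p6 by gene ID. With probe number = spot number + 32, 12367 spots were named. Values of arrays with Eps8KO in Cy3 had their sign turned. A mouse's 2 arrays and then a gene's probes were averaged. Features measured in every mouse were tested against 0, two-sided, in R 4.3.3 with limma 3.58.1 (lmFit, eBayes), with Benjamini-Hochberg adjustment over 15455 features. Matplotlib 3.10.9, SciPy 1.17.1, pandas 2.3.3 and NumPy 2.4.6 under Python 3.11.15 served the other steps. Tested on simulated data of 15455 features, the fit recovered 20% of features set to a log2 ratio of 1 and 53% of those set to 2.

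Named genes are the members, pathway genes at an unadjusted p under 0.05, key enzymes and regulators where measured, and the 3 genes most like each member over the arrays. Hsd17b12, Tecr, Hacd4, Elovl7, Degs1, Gpat4, Gpd1 and Agpat4 and single markers were named after their values were seen. Members and lists were chosen with earlier results of these data known. Alternatives were array medians set to 0, other limits on missing values, removal of values whose swapped arrays differed by over 1 in log2 (flip dye filter), single orientations, 8 arrays with a dye term and the mouse as a random block, single probes, no moderation, values at an array's limit left out, each mouse left out, and names without the shift. Probes on all 8 arrays only, the test of the dye difference and single orientations with array medians at 0 were added after the data were seen.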

Additional observations from a re-analysis of the deposited data

Results flagged for a closer look

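Over the 4 mice, 27 genes and probes of the text were searched for a mouse that stood apart from the other 3. Such a mouse was found in 2 of the 27. Chance alone gives about 1 in every 20 searched, so 2 of 27 is near what chance gives. Elovl5 in mouse 3 was at a log2 ratio of 0.802, against 0.39 to 0.46 in the other 3 mice, with a gap of 0.837 of the whole range. Mouse 3 was also the highest of the 4 for Scd1. Without mouse 3, Elovl5 was at 0.434, on the same side of 0. Elovl1 in mouse 2 was at -1.068, with a gap of 0.904 of the whole range.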

How the results depend on the processing

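The direction of each gene held in all settings but those given here. With only the arrays that had Eps8KO in Cy3, Elovl5 was at -0.06, and with array medians also set to 0 Elovl5 was at -0.236 and Scd1 at -0.056. With names taken without the shift of 32, Elovl5 was at -0.486, Elovl6 at 0.111 and Gpam at 0.237, and Scd1 kept its direction at 0.06, against 0.676 with the shift, so all 4 values rest on the naming. Without a mouse, Scd1 ran from 0.461 to 0.804, Elovl5 from 0.434 to 0.57, Elovl6 from -0.539 to -0.405 and Gpam from -1.198 to -0.84. The flip dye filter gave a value for Elovl6 alone (-0.348). Elovl6 itself lost probe 8154 in mice 2 and 4, 11213 in mouse 4 and 19862 in mouse 3. Its value in mouse 4 then rested on probe 214 alone. Values from a single array, 8154 in mouse 3 and 19862 in mice 1 and 2, were kept but could not be checked. The filter removed Scd1 in mice 3 and 4, Elovl5 in mice 2, 3 and 4, and Gpam in mice 1, 3 and 4. In each case the swapped arrays differed by over 1 in log2. These 3 genes thus did not pass this check of consistency between dyes. Over all alternatives the adjusted p by limma ran from 0.188 to 0.943 for Scd1, 0.155 to 0.939 for Elovl5, 0.284 to 0.96 for Elovl6 and 0.179 to 0.928 for Gpam.

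Features past an adjusted p of 0.05 by limma numbered 0 in the reported fit, 8 with a value required on all 8 arrays and 11 with Eps8KO in Cy3 only. They numbered 12 with probes on all 8 arrays only, and 35 with a dye term and the mouse as a random block (smallest adjusted p = 7.12e-05, against 0.119). Among them were 0 of the 4 genes. The dye-term fit put the correlation between arrays of a mouse at -0.00244. It thus weighed the 8 arrays of 4 mice nearly as independent samples, and its p-values are not those of 4 mice. The 7 other pathway genes past the unadjusted threshold became 3 under the flip dye filter, where 5351 features were tested, 17 with Eps8KO in Cy5 only, 15 with it in Cy3 only, 11 without moderation, and 2 without mouse 1, 2 without mouse 2, 3 without mouse 3 and 7 without mouse 4, the last with 6 higher and 1 lower against 3 and 4 with all mice. Shares of all features past the unadjusted threshold are not given for these settings. The counts of pathway genes therefore cannot be read as changes of the pathway apart from other features. No paired analysis was possible because the WT RNA was 1 pool. Depth of signal is unknown, and 4 mice limit the precision.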
